A study of Mus musculus with 14 samples.

Results

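Dgat1 and 8 other genes of triglyceride storage and fatty acid use were followed in regulatory T cells (Tregs) from spleen and tumor: Dgat2, Plin2, Plin3, Pnpla2, Mgll, Lpin1, Fabp5 and Cpt1a. Dgat1 was chosen by its measured counts in tumor Tregs, which were very high, and the other 8 were listed by their roles in lipid storage, lipolysis and fatty acid handling. All 9 were found by NCBI Gene number among the 27179 genes of the count table. Because its tumor level chose it, Dgat1 is described but not tested between tumor and spleen.

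Tregs were sorted by FoxP3-YFP from mice carrying an endpoint MC38 flank tumor, and polyadenylated RNA was sequenced in 14 libraries. Spleen WT and TIL WT (tumor-infiltrating) had 4 libraries each from strain B6.IL23RWT FoxP3Cre-YFP. Spleen Flox and TIL Flox had 3 libraries each from the IL23RFlox counterpart, in which the Il23r alleles are floxed. All 4 groups carried the FoxP3Cre-YFP allele, so Cre is driven by the Foxp3 gene in WT and Flox alike, and there was no tumor-free group. The labels do not say whether libraries came from separate mice or whether a spleen and a tumor library share a mouse, and the p-values therefore reflect no more than the spread among these libraries.

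Triglycerides are made in the endoplasmic reticulum by adding fatty acyl chains to a glycerol backbone. The enzymes DGAT1 and DGAT2 add the last chain, and the product is stored in lipid droplets coated by perilipins. The lipases ATGL (encoded by Pnpla2), HSL and MGL release the fatty acids again, and CPT1A admits their CoA esters to mitochondrial oxidation. In T cells, storage in droplets is known to buffer free fatty acids, and Tregs are known to use fatty acid oxidation.

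The libraries held 4859099 to 10333892 counts, with 13657 to 15312 genes detected. Values are CPM, the counts scaled to a common library size with the trimmed mean of M values (TMM) method. Summed Treg markers were 2270 to 3825 CPM in spleen and 4729 to 9196 CPM in tumor, with all 6 markers counted in every library. In log2 units, tumor minus spleen, Il2ra was at 1.53, Ctla4 at 3.33 and Ikzf2 at 1.02. Foxp3 was at -0.13, Cd3e at 0.06 and Cd4 at 0.39, with adjusted p of 0.783, 0.877 and 0.582 by the edgeR test described below. Il23r itself went against the labels in tumor, at 0.418, 0.893 and 0.676 CPM in TIL Flox and 0, 0.215, 0 and 0 CPM in TIL WT. Il23r rested on at most 9 counts in any library, and the sources used here do not say which exons the Flox allele loses. The groups are therefore called WT-labelled and Flox-labelled. Sex-linked reads followed the genotype labels: Xist was 56.7 to 529 CPM in WT-labelled and at most 3.34 CPM in Flox-labelled libraries. Genotype and sex therefore cannot be told apart in the Flox comparisons. Replicate 2 of Spleen WT and of TIL WT also held reads of the Y-linked Ddx3y, at 29.2 and 126.5 CPM, while the remaining WT-labelled libraries held at most 0.614 CPM.

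Dgat1 (Gene 13350, GRCm38.p6 chr15:76502012-76512021) encodes diacylglycerol O-acyltransferase 1, which also esterifies retinol. The coding part of its first coding exon is shown because the gene held up to 2.20% of a library's counts. Counts are by gene, so no share was measured for any 1 of its transcripts. It spans chr15:76511555-76511781 on the minus strand of GRCm38 and gives the first 227 of 1494 coding bases, in 1 of 17 coding exons of a 1888-base GENCODE transcript. Capitals mark the start codon.
Dgat1: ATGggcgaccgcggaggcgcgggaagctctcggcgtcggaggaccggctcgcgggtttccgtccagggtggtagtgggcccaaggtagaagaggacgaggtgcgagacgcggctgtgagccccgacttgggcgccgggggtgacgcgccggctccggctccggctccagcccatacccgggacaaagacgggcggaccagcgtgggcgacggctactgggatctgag

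In tumor, Dgat1 stood at 29581, 18252, 20771 and 18883 CPM in TIL WT, and at 15852, 14074 and 21325 CPM in TIL Flox. In spleen it was 1274, 369, 788 and 1462 CPM in Spleen WT, and 1087, 830 and 833 CPM in Spleen Flox. Every tumor library was above every spleen library, and the lowest tumor value was several times the highest spleen value. These are the values that chose the gene, and nothing is read from them beyond their size. In bulk RNA, fewer cells expressing a gene and less RNA of it per cell cannot be told apart, here and in every comparison of these libraries.

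Mean CPM of Dgat1 was 19820 ± 5009 (SD, n = 7) in tumor and 949 ± 360 (SD, n = 7) in spleen. The ratio of means was 22.5 in the WT-labelled and 18.6 in the Flox-labelled libraries. The fitted log2 difference was 4.37 ± 0.28 (SE), or 20.7-fold. Without TMM scaling, Dgat1 took 1.31 to 2.20% of all counts in tumor libraries and 0.0464 to 0.160% in spleen libraries. It ranked between 2 and 5 by count among all genes in tumor, and between 76 and 351 in spleen. In TIL WT replicate 1 only H2-K1, a class I MHC gene, had more counts. Where Dgat1 ranked 3, Lars2, which encodes the mitochondrial leucyl-tRNA synthetase, also lay above it.

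**Figure D1:**
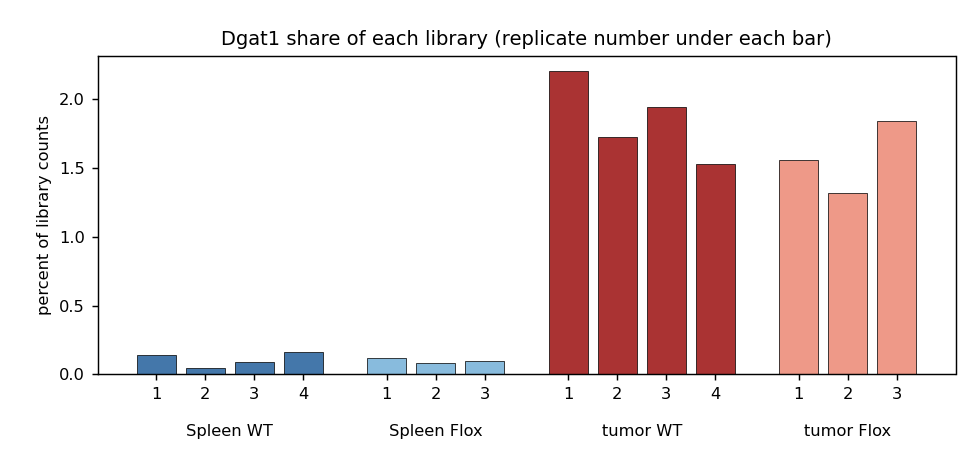
Dgat1 reads as a percent of all counts in each of the 14 libraries, by group, with no scaling between libraries. The 7 tumor libraries lie between 1.31 and 2.20%, and the 7 spleen libraries between 0.0464 and 0.160%.

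No other annotated gene shared 75 or more bases of Dgat1 transcript at 95% identity or better. The nearest gene, Hsf1, a heat shock transcription factor 856 bases away, did not share its pattern: Hsf1 was 9.62 to 20.5 CPM in spleen and 4.28 to 7.44 CPM in tumor. The sources used here do not say whether reads were counted by strand.

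Per kilobase of merged exon, Dgat1 was far above the other 8 genes in both tissues. Merged exon length joins the exons of all annotated transcripts of a gene. It places a gene too low where the transcripts in use are shorter, and which were in use was not measured. For Fabp5 it was 3567 bases. Its tumor level was 6485 ± 1639 CPM per kb (SD, n = 7), followed by Plin2 at 11.7 ± 9.98, Plin3 at 8.52 ± 4.98 and Pnpla2 at 4.99 ± 0.906 CPM per kb. Dgat2, Fabp5, Cpt1a, Lpin1 and Mgll came after these, at 2.86 ± 1.19, 2.41 ± 2.04, 2.19 ± 0.430, 1.47 ± 0.902 and 0.180 ± 0.207 CPM per kb. Below Dgat1, the range of each gene over the 7 libraries overlapped that of its neighbour in this order. The tumor order is a description, since the Dgat1 level chose the gene.

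In spleen, Dgat1 was again first at 310 ± 118 CPM per kb (SD, n = 7). Plin3 followed at 6.57 ± 4.27, Cpt1a at 4.04 ± 3.54, Pnpla2 at 3.90 ± 1.50 and Dgat2 at 3.74 ± 5.37 CPM per kb. Lpin1 at 1.46 ± 0.908, Plin2 at 1.30 ± 0.852, Fabp5 at 1.00 ± 0.504 and Mgll at 0.646 ± 1.13 CPM per kb closed the order. Below Dgat1, each gene's range overlapped that of its neighbour. By merged exon length, Plin2 thus stood at place 7 of 9 in spleen and at place 2, next to Dgat1, in tumor. The places below Dgat1 are a description, since neighbouring ranges overlapped and the order depends on the length used.

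**Figure D2:**
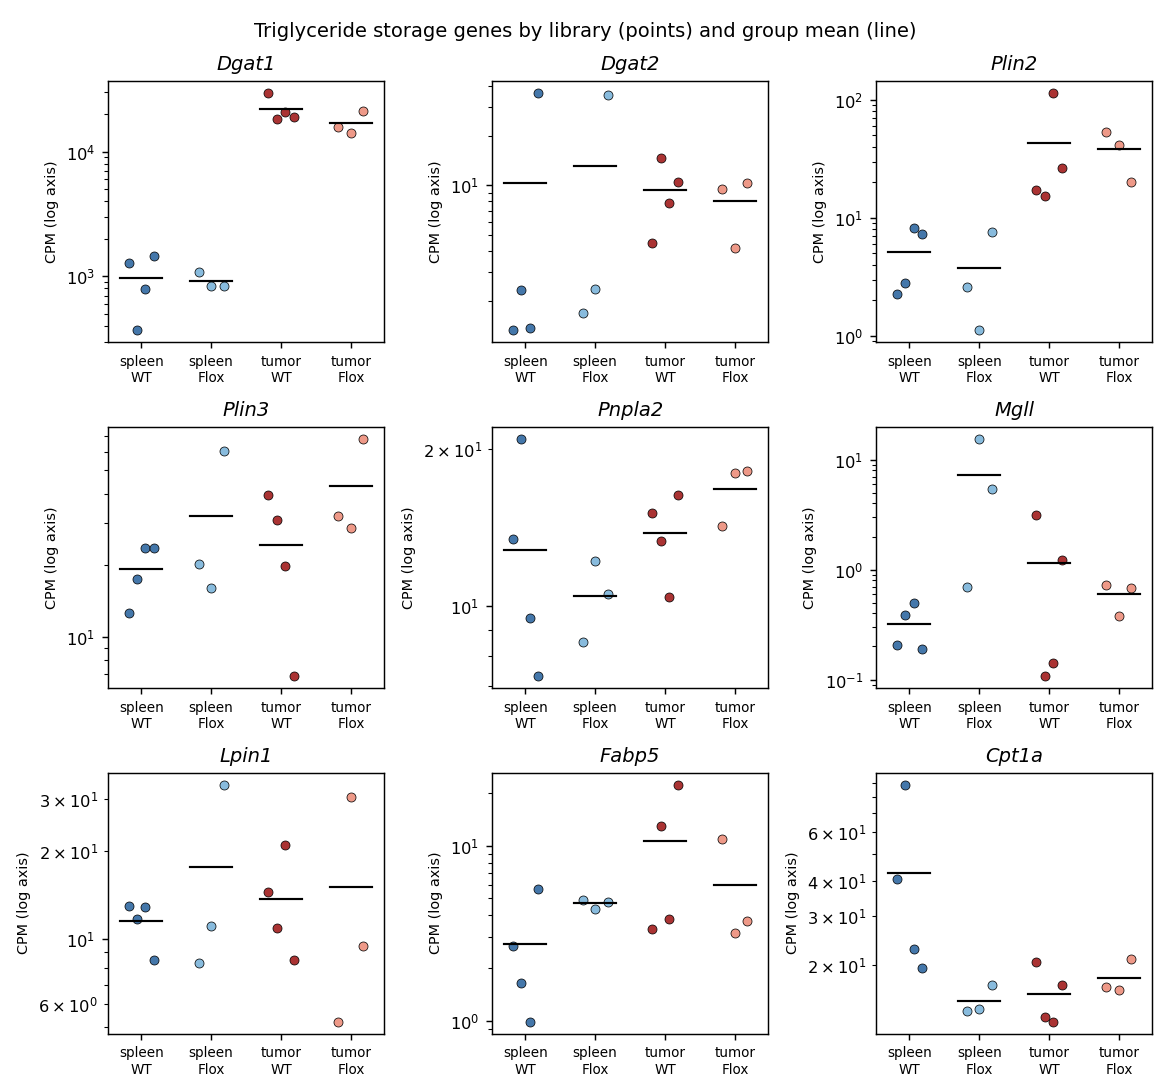
CPM of the 9 genes in each library on a log axis, 1 panel per gene, with a point per library, a line at each group mean, and the groups Spleen WT, Spleen Flox, TIL WT and TIL Flox. Dgat1 and Plin2 are the panels in which all tumor points lie above all spleen points.

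Tumor and spleen were compared over all 14 libraries with the genotype label as a covariate, by the edgeR quasi-likelihood test with Benjamini-Hochberg adjustment over 12008 genes. Of the 8 genes tested, Plin2 rose in tumor and none fell. The median log2 difference (tumor minus spleen) of the 8 was 0.20, and that of all genes was 0.03. Over all genes tested, 22.5% passed at an adjusted p under 0.05, with 12.3% higher and 10.2% lower, so 1 of 8 passing is close to the background share. Of the 8, 1 lay higher in tumor without overlap between tissues and none lower, against 5.91% and 3.46% of all genes tested.

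Plin2 (Gene 11520, chr4:86626910-86670217) encodes perilipin 2, the lipid droplet coat protein found in most cell types. It was 2.25, 2.81, 8.19 and 7.33 CPM in Spleen WT, and 2.61, 1.12 and 7.54 CPM in Spleen Flox. In tumor it was 17.2, 15.4, 114 and 26.5 CPM in TIL WT, and 53.2, 41.3 and 20.3 CPM in TIL Flox. All 7 tumor libraries were above all 7 spleen libraries. The log2 difference was 3.19 ± 0.62 (SE; 95% limits 1.86 and 4.52), or 9.12-fold, with an adjusted p of 0.00263 by the edgeR test.

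TIL WT replicate 3 was the highest for Plin2, and without it the log2 difference was 2.60 with an adjusted p of 0.00563 (edgeR). Within the WT-labelled libraries alone it was 3.10 with an adjusted p of 0.067, and within the Flox-labelled alone 3.35 with 0.0637, so neither genotype passed by itself in edgeR. Gm12551, a pseudogene that overlaps the end of Plin2 and matches 259 bases of it at 96.1% identity, had no row of its own among the counts used here.

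Another droplet gene outside the 9, Hilpda, moved further in the same contrast. It encodes a hypoxia-inducible droplet protein that inhibits ATGL. Hilpda was 1.87 to 4.51 CPM in the 7 spleen libraries and 31.1 to 72.3 CPM in the 7 tumor libraries, with no overlap. Its log2 difference was 4.07 ± 0.35 (SE), with an adjusted p of 7.05e-06 by the edgeR test. It passed in every alternative tried, the WT-labelled and Flox-labelled libraries taken alone included.

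The promoter windows of Plin2 and Hilpda are shown because both droplet genes rose in tumor. They come from RefSeq on GRCm38.p6 and run from 250 bases before to 50 bases after the annotated start. The Plin2 window is chr4:86670010-86670309 on the minus strand, and the Hilpda window, the later of 2 annotated starts, is chr6:29272376-29272675 on the plus strand. Capitals mark 4 kinds of motif, each searched on both strands. They are the E-box, spelled CACGTG, and the core read by hypoxia-inducible factors, spelled ACGTG and also present inside every E-box. The others are the GC box of Sp1-type factors, spelled GGGCGG, and the box read by factor NF-Y, spelled CCAAT.
Plin2: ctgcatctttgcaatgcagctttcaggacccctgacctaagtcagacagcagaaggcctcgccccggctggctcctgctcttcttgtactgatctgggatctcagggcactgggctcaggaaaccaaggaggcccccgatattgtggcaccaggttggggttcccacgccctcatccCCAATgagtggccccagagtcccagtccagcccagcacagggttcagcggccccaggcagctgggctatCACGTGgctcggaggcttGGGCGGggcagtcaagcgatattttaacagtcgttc
Hilpda: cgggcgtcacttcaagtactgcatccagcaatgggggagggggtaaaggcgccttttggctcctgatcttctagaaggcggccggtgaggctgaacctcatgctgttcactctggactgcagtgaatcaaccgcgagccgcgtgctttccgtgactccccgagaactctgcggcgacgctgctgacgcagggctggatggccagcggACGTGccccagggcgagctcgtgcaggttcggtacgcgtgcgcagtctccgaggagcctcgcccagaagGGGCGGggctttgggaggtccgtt

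In Plin2, CACGTG begins 4 bases before the start, CCAAT 73 bases before it, and GGGCGG at base 14 after it. In the later Hilpda window, ACGTG begins 43 bases before the start and GGGCGG at base 26 after it. The window of the earlier Hilpda start held GGGCGG, 154 bases before it, and none of the other motifs. The motifs were not limited to genes that rose: both windows of Mgll held ACGTG and 1 held CACGTG, and every member with a promoter except Lpin1 held GGGCGG. Of 32851 promoter windows in the table, 7.15% held CACGTG, 19.6% ACGTG, 35.7% GGGCGG and 37.4% CCAAT. A match is a description of the letters and not a measured site. The letters TATAAA (13.6% of windows), TCACNCCAC (1.24%) and the PPAR response element (0.0396%) were also searched, and neither window held any of them. Of the 9 genes, 6 had a promoter in the table: Plin2, Plin3, Pnpla2, Mgll, Lpin1 and Cpt1a.

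The second acyltransferase, Dgat2 (Gene 67800, chr7:99153663-99182713), makes the same product as DGAT1 but is an unrelated protein. It was 1.33, 2.34, 1.38 and 36.3 CPM in Spleen WT and 1.70, 2.36 and 35.3 CPM in Spleen Flox. In tumor it was 4.49, 14.7, 7.88 and 10.4 CPM in TIL WT and 9.51, 4.21 and 10.4 CPM in TIL Flox. In each spleen group 1 library was high, and the other 5 were below every tumor library. The log2 difference was -0.38 ± 0.84 (SE; 95% limits -2.18 and 1.43), with an adjusted p of 0.787 (edgeR). Without Spleen WT replicate 4 it was 0.92, and without Spleen Flox replicate 3 it was 0.56, so these libraries set its direction.

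Plin3 (Gene 66905, chr17:56278962-56290511) encodes a perilipin that moves between cytosol and droplets. It was 12.6, 17.6, 23.7 and 23.7 CPM in Spleen WT and 20.2, 16.04 and 60.4 CPM in Spleen Flox. In tumor it was 39.3, 31.0, 19.8 and 6.87 CPM in TIL WT and 32.2, 28.8 and 67.9 CPM in TIL Flox. The groups overlapped, and the log2 difference of 0.36 ± 0.44 (SE) did not pass (adjusted p = 0.598, edgeR). Plin3 transcripts share stretches of up to 135 bases with 96 other annotated genes, 51 of them in the count table, so its reads could be split by the counting.

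Lpin1 (Gene 14245, chr12:16535669-16653903) encodes lipin 1, the phosphatidic acid phosphatase that supplies diacylglycerol to the DGAT enzymes. It was 8.32 to 33.6 CPM in spleen (median 11.7, n = 7) and 5.22 to 30.5 CPM in tumor (median 10.9, n = 7). Its log2 difference was 0.04 ± 0.44 (SE; 95% limits -0.91 and 0.99), with an adjusted p of 0.959 (edgeR). These limits leave room for a difference of either sign.

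The lipases gave no call. Pnpla2 (Gene 66853, chr7:141455188-141460743), which encodes the enzyme of the first lipolytic step, was 7.33 to 20.9 CPM in spleen (median 10.6) and 10.4 to 18.1 CPM in tumor (median 15.05). Its log2 difference was 0.36 ± 0.30 (SE; 95% limits -0.28 and 0.99; adjusted p = 0.427, edgeR). Mgll (Gene 23945, chr6:88724412-88828360), which encodes monoacylglycerol lipase, had 1 to 16 counts per library except in Spleen Flox replicates 2 and 3, with 125 and 65. Its log2 difference was -0.57 ± 1.29 (SE), with an adjusted p of 0.788 (edgeR).

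Fabp5 (Gene 16592, chr3:10012585-10016610) encodes a cytosolic fatty acid binding protein. In spleen it was 2.66, 1.64, 0.986 and 5.64 CPM in WT-labelled and 4.91, 4.35 and 4.77 CPM in Flox-labelled libraries. In tumor it was 3.32, 13.0, 3.80 and 22.3 CPM in TIL WT and 10.9, 3.19 and 3.72 CPM in TIL Flox. Of the tumor libraries, 3 were above every spleen library and the other 4 lay inside the spleen range. The log2 difference of 1.27 ± 0.58 (SE) had an unadjusted p of 0.045 and an adjusted p of 0.131 (edgeR), so it did not pass. Fabp5 has 5 near-identical copies in the annotation, the closest over 409 bases at 98.3% identity, and none had a row among the counts used here.

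Cpt1a (Gene 12894, chr19:3322326-3385735) encodes carnitine palmitoyltransferase 1A, the gatekeeper of mitochondrial fatty acid oxidation. It was 40.6, 88.7, 22.8 and 19.5 CPM in Spleen WT and 13.7, 13.9 and 17.0 CPM in Spleen Flox. In tumor it was 20.5, 13.0, 12.5 and 16.9 CPM in TIL WT and 16.7, 16.3 and 21.1 CPM in TIL Flox. The first 2 Spleen WT replicates were the highest, and all other libraries lay between 12.5 and 22.8 CPM. The log2 difference between tumor and spleen was -0.72 ± 0.44 (SE; 95% limits -1.67 and 0.24), with an adjusted p of 0.271 (edgeR). In the Flox-labelled libraries alone the estimate was 0.29.

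Genes around the 9 were read from lists of the pathway, with the 9 members counted where they belong and Dgat1 left out of the tissue counts. Each list's count stands beside the share of all genes tested that passed, 12.3% higher and 10.2% lower, and beside their median of 0.03. Of 11 other triglyceride synthesis genes tested, 1 rose and 1 fell in tumor, with a list median of 0.37 log2 units. Agpat4, which encodes an acylglycerolphosphate acyltransferase, rose by 2.62 ± 0.60 (SE; adjusted p = 0.00715, edgeR), from 0.690 to 6.01 CPM in Spleen WT to 4.63 to 24.8 CPM in TIL WT. Gpam, which encodes the mitochondrial enzyme that starts glycerolipid synthesis, fell by 3.10 (SE 0.74; adjusted p = 0.00872, edgeR), to at most 2.82 CPM in every tumor library. Neither gene passed in the WT-labelled libraries alone, with adjusted p of 0.102 and 0.156, and Agpat4 gave 0.0841 in the Flox-labelled libraries alone (edgeR).

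Of 14 droplet proteins listed, 5 were tested and 2 rose, Plin2 and Hilpda, beside 12.3% of all genes tested, with a list median of 0.36. The other perilipins listed were at or near 0: Plin4 had no count in any library, Plin1 had 2 counts and Plin5 had 1 count in all libraries together. None of the 8 lipolysis genes tested passed in the edgeR test, and 1 of them, Faah, passed in 1 of 23 alternatives. The 2 smallest p-values among those outside the 9 belonged to Abhd5, the coactivator of ATGL, at 0.72 ± 0.38 (SE; adjusted p = 0.192, edgeR), and to Faah at -0.87 ± 0.56 (SE; adjusted p = 0.296, edgeR).

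Of 12 fatty acid uptake and activation genes tested, 3 rose and 1 fell, beside 12.3% and 10.2% of all genes tested, with a list median of 0.48. Vldlr, a lipoprotein receptor, rose by 3.92 ± 0.66 (SE; adjusted p = 0.00104, edgeR) on low levels. It went from at most 0.390 CPM in spleen to between 0.563 and 5.75 CPM in tumor. Its counts summed to 9 over the Spleen WT libraries and to 5 over the Spleen Flox libraries, so the size of its rise is uncertain. Dbi, which encodes the acyl-CoA binding protein, rose by 1.58 ± 0.30 (SE; adjusted p = 0.00224, edgeR), from 3.71 to 7.57 CPM in spleen to 9.43 to 27.0 CPM in tumor. Tumor and spleen libraries did not overlap for either gene.

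Acsl4, an acyl-CoA synthetase with a preference for arachidonate, rose by 1.77 ± 0.44 (SE; adjusted p = 0.0113, edgeR), from 239 to 530 CPM in spleen to 433 to 3690 CPM in tumor, with overlap. Fabp3 fell by 3.10 (SE 1.02; adjusted p = 0.0417, edgeR) on low levels, at most 4.71 CPM in spleen and 0.861 CPM in tumor. The Fabp3 call was lost in 13 of 20 alternatives. Dbi and Acsl4 did not pass in either genotype alone, with adjusted p between 0.0578 and 0.138.

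Mitochondrial fatty acid oxidation gave no call among 18 genes tested, Cpt1a among them, and its list median was -0.08. The carnitine carrier Slc25a20 at 2.51 ± 0.96 (SE; adjusted p = 0.0776, edgeR) and Cpt2 at -1.73 ± 0.68 (SE; adjusted p = 0.0826, edgeR) had the smallest p-values and lay in opposite directions. Of 23 alternatives, Slc25a20 passed in 2 and Cpt2 in 1. The highest TIL WT library held 348 CPM of Slc25a20, beside a TIL WT median of 25.0 CPM. Sterol esters, the parallel store in droplets, gave no call in the 2 genes tested. Soat1, whose enzyme makes the esters, was at -0.15 ± 0.42 (SE). Nceh1, whose enzyme breaks them down, was at 0.11 ± 0.53 (SE). Retinoid genes gave none in 5, with Rarg at 1.07 ± 0.57 and Rdh10 at 0.79 ± 0.47 (SE).

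Of 9 lipid transcription factors and cofactors tested, 2 rose and 1 fell, beside 12.3% and 10.2% of all genes tested, with a list median of 0.45. Hif1a, the oxygen-regulated subunit of a hypoxia-inducible factor, rose by 2.42 ± 0.34 (SE; adjusted p = 2.82e-04, edgeR), from 286 to 878 CPM in spleen to 1889 to 5432 CPM in tumor without overlap. Pparg, a nuclear receptor of lipid storage, rose by 2.56 ± 0.57 (SE; adjusted p = 0.00583, edgeR) from low levels, at most 1.13 CPM in spleen and 8.01 CPM in tumor. Ppargc1b, a coactivator of mitochondrial genes, fell by 4.01 (SE 0.81; adjusted p = 0.00336, edgeR), from 0.701 to 59.3 CPM in spleen to at most 2.34 CPM in tumor. Hif1a passed in every alternative tried, and Vldlr in every one that tested it. In the WT-labelled libraries alone Ppargc1b had an adjusted p of 0.0508 and Pparg 0.0647, and in the Flox-labelled alone Pparg had 0.0831 (edgeR).

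**Figure D3:**
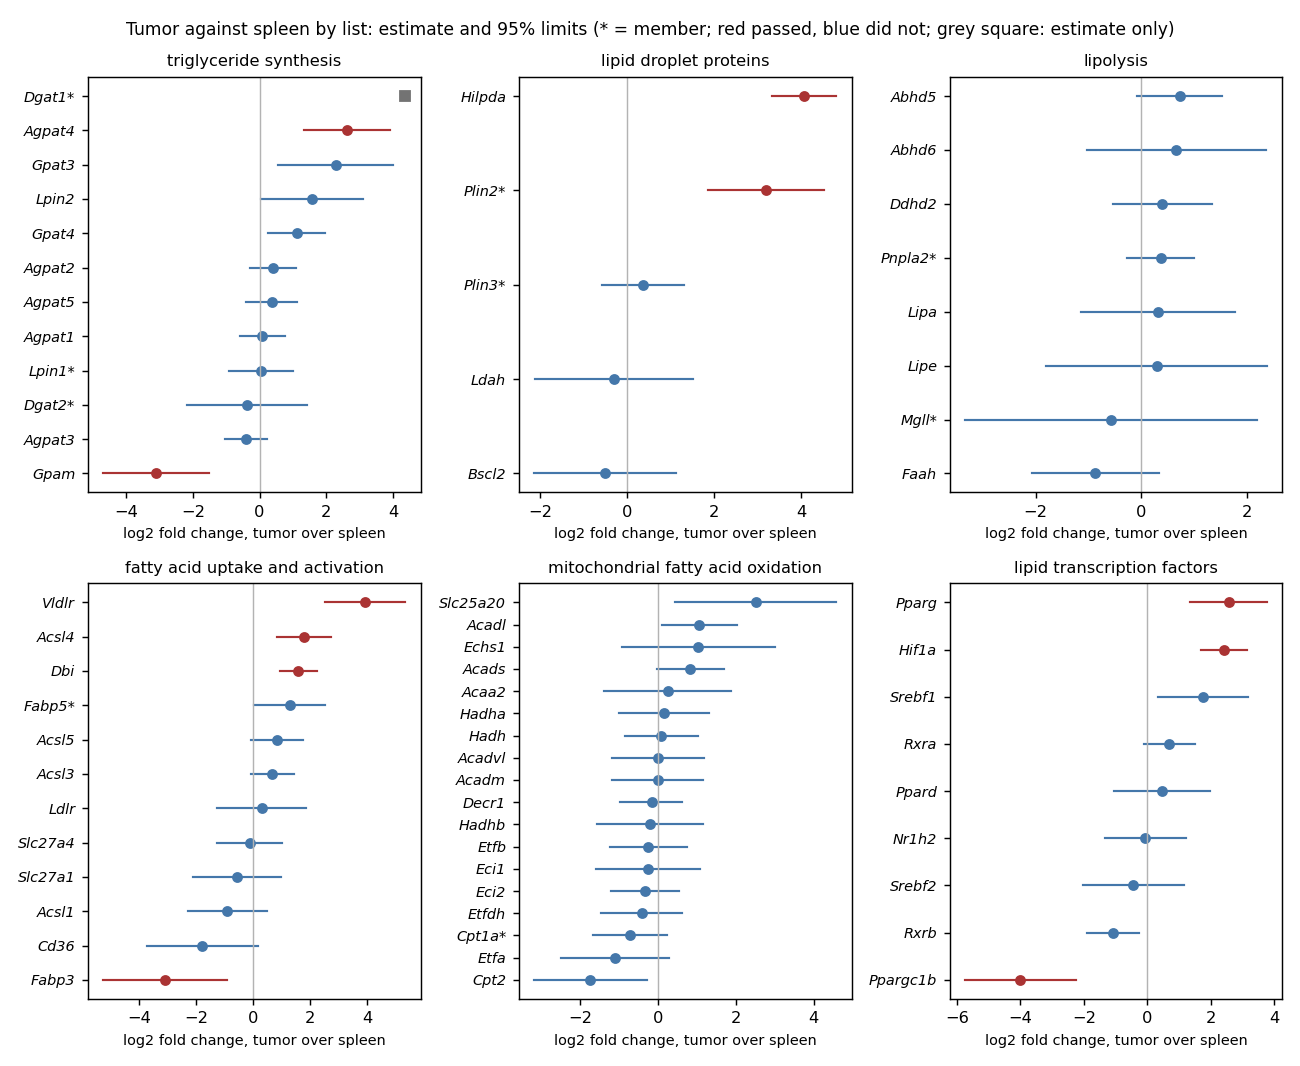
Log2 differences between tumor and spleen with 95% limits for the tested genes of 6 pathway lists, 1 panel per list, with red for genes that passed in the edgeR test, blue for those that did not, and a grey square for Dgat1, which was not tested. Hilpda at 4.07 and Vldlr at 3.92, the latter on low counts, are the highest of the genes that passed, and Ppargc1b at -4.01 is the lowest.

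Markers of other cells were read beside these differences. The 6 adipocyte markers summed to at most 0.245 CPM in any library, and Lep, Cfd, Cidec and Retn had no count at all. The 6 carcinoma markers summed to 3.75 to 28.0 CPM in spleen and 0.391 to 4.22 CPM in tumor, with Krt19 and Cldn4 at 0 throughout. Adipocyte markers were thus near 0 in both tissues, and the carcinoma sum was lower in most tumor libraries than in spleen. No library had counts for more than 3 of the 6 carcinoma markers. Only 1 of them, Epcam, was tested, and it fell by 2.00 (SE 0.55; adjusted p = 0.0185, edgeR). The sum therefore says little about tumor cells in the sorts.

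The 10 macrophage markers summed to 7.09 to 247 CPM in spleen and 10.9 to 161 CPM in tumor, and the 8 fibroblast and endothelial markers to 55.4 to 164 and 37.6 to 293 CPM. The 8 B cell markers were 264 to 1821 CPM in spleen and 2.81 to 103 CPM in tumor. The 10 genes of cell handling summed to 858 to 1623 CPM in spleen and 1055 to 2851 CPM in tumor. The remaining lists were 6 CD8 T and NK markers, at 4.85 to 38.6 CPM in spleen and 11.4 to 501 CPM in tumor, and 6 dendritic cell markers, at 0.690 to 52.9 and 5.96 to 28.0 CPM. In the edgeR test, 7 of 8 B cell markers fell in tumor. Of 5 fibroblast and endothelial markers tested, 4 rose, the fibroblast genes Col1a1, Col1a2, Col3a1 and Dcn. The endothelial marker tested, Pecam1, was at -0.85 ± 0.67 (SE) and did not pass (adjusted p = 0.395, edgeR). Of 9 macrophage markers tested, 3 rose and 1 fell, and none of the 10 cell handling genes passed. Of 5 CD8 T and NK markers tested, Prf1 rose, at 5.47 log2 units, and Klrb1c fell, at -9.26. Cd8a at -0.45, Cd8b1 at -0.09 and Klrk1 at 0.67 did not pass. Of the dendritic cell markers, 1 rose of 3 tested. The B cell markers and these 4 fibroblast genes thus moved with tissue, and the part of other cells in the differences of Plin2, Hilpda and the other genes was not tested.

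The libraries were then searched for genes whose level ran most like Dgat1. Among 5436 genes, the highest Pearson correlations of log2 CPM over the 14 libraries were with Icos (0.988), Itgav (0.979), Maf (0.974), Ifi27l2a (0.971) and Sox9 (0.971). Icos encodes a costimulatory receptor, Itgav an integrin chain, and Maf and Sox9 transcription factors. The 14 libraries share the step between tissues, the contrast that chose Dgat1. With group means removed, the correlations were 0.78, 0.78, 0.43, 0.13 and 0.49. The same 14 libraries picked these genes, and the spread inside the groups entered that choice. The second set of values is therefore a description and no separate evidence of likeness.

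With group means removed, the 9 genes did not run together. Over the 14 libraries, Dgat1 gave 0.00 with Plin2, 0.20 with Dgat2, -0.62 with Pnpla2 and -0.55 with Cpt1a. Pnpla2 and Cpt1a gave 0.90, the closest pair of the 9, and both were highest in Spleen WT replicate 2. These are descriptions over 14 libraries that share depth and composition.

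The study's design sets Flox beside WT inside each tissue. In tumor, none of 10777 genes passed in the edgeR test, a share of 0%, and 871 had an unadjusted p under 0.05. DESeq2 called 256 genes and limma voom 1, with none of the 8 members tested among them. Of the 8 members tested, 4 estimates were above and 4 below 0, with adjusted p from 0.603 to 0.977, and Mgll was too low to be tested. All 9 overlapped between TIL Flox and TIL WT, while 2.47% of tested genes lay apart with Flox higher and 2.52% with Flox lower.

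Dgat1 in tumor averaged 21872 ± 5250 CPM (SD, n = 4) in TIL WT and 17084 ± 3779 CPM (SD, n = 3) in TIL Flox. The log2 difference was -0.37 ± 0.20 (SE; 95% limits -0.84 and 0.10), with an adjusted p of 0.603 (edgeR). A Flox-labelled level below the WT-labelled one by more than 0.84 log2 units, or above it by more than 0.10, lay outside the limits. This contrast was not used to choose the gene.

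Plin2 averaged 43.3 ± 47.5 CPM (SD, n = 4) in TIL WT and 38.3 ± 16.7 CPM (SD, n = 3) in TIL Flox, a log2 difference of -0.23 ± 0.90 (SE; adjusted p = 0.963, edgeR). Without TIL WT replicate 3 the estimate was 0.99, so that library set its direction. Plin3, at 0.81 ± 0.70, and Fabp5, at -0.84 ± 0.80 (SE), were the largest estimates, with adjusted p of 0.749 and 0.778 (edgeR). Dgat2, Pnpla2, Lpin1 and Cpt1a lay between -0.25 and 0.28.

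Of the pathway lists, no gene passed in tumor, and the 16 with the smallest p-values of their lists had adjusted p from 0.584 to 0.811. Acaa2, the mitochondrial thiolase, was at 2.80 ± 1.00 and Acadvl, a long-chain acyl-CoA dehydrogenase, at -1.91 ± 0.78 (SE). For Acaa2, 1 TIL Flox library stood at 71.8 CPM, beside a TIL Flox median of 4.97 CPM and 2.67 to 4.69 CPM in TIL WT. With 1 library left out, the Acaa2 estimate fell as low as 0.30. Lipe, which encodes HSL, was at -3.94 ± 1.93 (SE), with 1 TIL WT library at 51.9 CPM and the TIL Flox libraries at most at 1.40 CPM. These are values and not calls.

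In spleen, none of 10935 genes passed in the edgeR test, again 0%, with 750 at an unadjusted p under 0.05. DESeq2 called 124 genes, none of the 8 members tested among them, and Mgll was too low to be tested. Dgat1 averaged 973 ± 493 CPM (SD, n = 4) in Spleen WT and 917 ± 147 CPM (SD, n = 3) in Spleen Flox. Its log2 difference was -0.08 ± 0.43 (SE; 95% limits -1.08 and 0.91), with an adjusted p of 0.979 (edgeR). Spleen Flox lay wholly inside the Spleen WT range.

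Cpt1a and Mgll were the members whose spleen groups did not overlap. Cpt1a was 42.9 ± 31.9 CPM (SD, n = 4) in Spleen WT and 14.9 ± 1.83 CPM (SD, n = 3) in Spleen Flox, with the 4 WT-labelled libraries above the 3 Flox-labelled ones. Over all genes tested, 3.14% were lower in Flox without overlap and 2.75% higher. The log2 difference of Cpt1a was -1.52 ± 0.64 (SE; 95% limits -3.01 and -0.04), with an unadjusted p of 0.0457 and an adjusted p of 0.674 (edgeR), so it did not pass. Without Spleen WT replicate 2 the estimate was -0.90.

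In spleen, B cell markers were also higher in most WT-labelled libraries than in the Flox-labelled ones. Their sum was 813, 1821, 759 and 358 CPM in Spleen WT and 344, 264 and 386 CPM in Spleen Flox. In tumor the B cell sum was 2.81 to 103 CPM, below every spleen library, and Cpt1a was 12.5 to 21.1 CPM. Macrophage markers summed to 61.8, 247, 16.4 and 52.8 CPM in Spleen WT and to 18.6, 7.09 and 45.1 CPM in Spleen Flox. Spleen WT replicate 2 was the highest in both lists and in Cpt1a, and the part of these cells in the Cpt1a values was not tested.

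Mgll was 0.205, 0.390, 0.493 and 0.188 CPM in Spleen WT, from 1 to 5 counts each, and 0.701, 15.5 and 5.44 CPM in Spleen Flox, from 7, 125 and 65 counts. Of the Spleen Flox libraries, 2 were high and replicate 1 was just above the WT-labelled ones. The gene fell below the abundance filter of the spleen fit. With no filter its log2 difference was 4.44 ± 0.98 (SE), with an unadjusted p of 0.00145 and an adjusted p of 0.676 over 18019 genes (edgeR).

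The other 6 members overlapped in spleen, with estimates from -0.45 (Plin2) to 0.80 (Fabp5) and adjusted p from 0.773 to 0.975. Dgat2 had the widest limits, -3.15 and 3.83 around 0.34, with Spleen WT replicate 4 at 36.3 CPM and Spleen Flox replicate 3 at 35.3 CPM. No pathway gene passed in spleen. Of the 16 with the smallest p-values of their lists, Lipe, Nceh1 and Rdh11 had groups that did not overlap. Lipe was at -2.58 ± 0.85, Nceh1 at 1.47 ± 0.55 and Rdh11 at -0.93 ± 0.37 (SE), each with an adjusted p of 0.674 (edgeR). Over all genes tested, 3.14% were lower in Flox without overlap and 2.75% higher, and nothing is read from these genes.

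**Figure D4:**
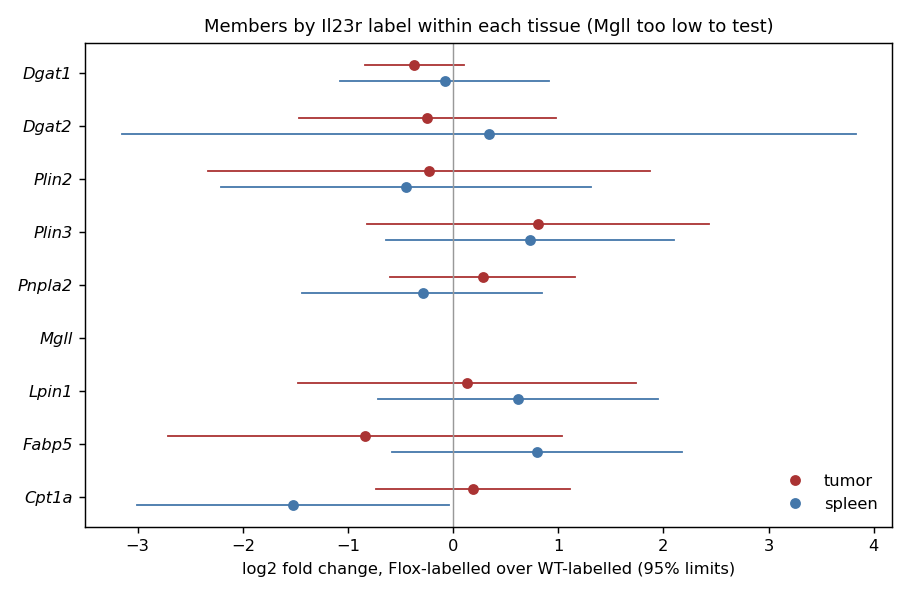
Log2 differences between Flox-labelled and WT-labelled libraries for the 8 genes tested in tumor and in spleen, with 95% limits from the edgeR fit, and with the row of Mgll, which was too low to test, left blank. Dgat1 is at -0.37 in tumor and -0.08 in spleen, and Cpt1a in spleen at -1.52 is the plotted estimate farthest from 0.

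Whether the Flox difference itself differed between tumor and spleen was tested as an interaction over all 14 libraries. None of 12008 genes passed in edgeR, a share of 0%, with 1296 at an unadjusted p under 0.05, and DESeq2 called 135. For Dgat1 the difference was -0.27 ± 0.51 (SE; 95% limits -1.36 and 0.82), with an adjusted p of 0.895 (edgeR). Among the 9 members, 2 had an unadjusted p under 0.05: Mgll at -5.27 ± 1.57 and Cpt1a at 1.72 ± 0.75 (SE).

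Neither passed, with adjusted p of 0.425 and 0.444 by the edgeR test. Mgll gave 0.0511 in DESeq2, and its estimate was -4.06 without Spleen Flox replicate 2, the library with 125 counts. With no filter, the Flox difference of Mgll was -0.82 in tumor and 4.44 in spleen, and that of Cpt1a in the filtered fits was 0.19 in tumor and -1.52 in spleen. The remaining 6 members lay between -1.64 (Fabp5) and 0.58 (Pnpla2), with adjusted p from 0.593 to 0.99. Of 16 pathway genes read in this test, none passed, and adjusted p ran from 0.425 (Acaa2 and Nceh1) to 0.776 (Soat1).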

How the data were processed

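Polyadenylated RNA of sorted Tregs was measured in 14 libraries in 4 groups. The RNA was isolated on Qiagen micro columns and GeneWiz prepared ultra-low input libraries, per the labels. What the authors deposited is a table of unnormalized read counts by gene. The submitters' processing notes name mm10. The sources used here name no aligner, counter or strand setting. Gene numbers were matched to RefSeq on GRCm38.p6 (25275 genes), 18 more through GENCODE, and the 1886 unmatched IDs, with 1.25 to 1.94% of counts, stayed in the tests. No 2 libraries of a group were duplicates, with a chi-square per degree of freedom of at least 92.1.

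The counts were tested with edgeR 4.0.16 in R 4.3.3 (quasi-likelihood F test, TMM, filterByExpr by group, threshold 0.05 after Benjamini-Hochberg adjustment over all genes tested). The SE is the absolute log2 difference divided by the square root of F, and the 95% limits follow from it. Likeness to Dgat1 used log2(CPM + 0.5) in genes with an average log2 CPM of at least 4. Shared sequence was searched with BLAST 2.17.0. Alternatives were DESeq2 1.42.0, limma 3.58.1 (voom with quality weights), other scaling, other filters, a replicate block, 1 genotype at a time, and leaving out libraries.

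The 9 members and the 17 gene lists (167 genes, 166 found) were chosen with earlier results of these data known. Named pathway genes were those that passed, up to 6 per list, or otherwise the 2 with the smallest p, and some of the latter are given as ranges. On simulated counts, 84% of 16-fold and 54% of 8-fold changes were recovered between tumor and spleen over 11818 genes. For Flox against WT, 46% of 16-fold changes were recovered in spleen over 10770 genes and 0% in tumor over 10489 genes, and 2% for the difference over 11791 genes.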

Additional observations from a re-analysis of the deposited data

Results flagged for a closer look

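In groups of 4 libraries, a member's highest or lowest value was set against the gap to its neighbour, over 18 pairs of gene and group. Chance flags about 1 in 20 where values are normally distributed. CPM values can be skewed, and the rate for them was not measured. In Spleen WT, Dgat2 was 36.3 CPM in replicate 4, far from the other 3 libraries at 1.33 to 2.34 CPM. In TIL WT, Plin2 was 114 CPM in replicate 3, far from the other 3 at 15.4 to 26.5 CPM. The dendritic cell markers summed to 28.0 CPM and the B cell markers to 103 CPM in that library, the highest of the tumor libraries in both lists, and their part in the Plin2 value was not tested.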

How the results depend on the processing

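For tumor against spleen, Plin2 lay between 2.60 and 3.53 log2 units in the alternatives, with adjusted p from 2.90e-07 to 0.067. Dgat1 lay between 4.20 and 4.50, a direction its choice had fixed. The count of genes called, 2701, was 750 in the WT-labelled and 847 in the Flox-labelled libraries alone, fits with fewer samples, and 2357 to 2668 when 1 library was left out. In the Flox comparisons, where edgeR called 0, DESeq2 called 256 in tumor, 124 in spleen and 135 for the difference. In tumor, voom called 1. In spleen, the stricter filter of 5 CPM in 3 libraries called 1, the fit of all 14 libraries 4, and leaving out 1 library 0 to 1 (1 without Spleen WT replicate 2). For the difference, leaving out 1 library gave 0 to 1 (1 without TIL Flox replicate 1), and in tumor 0. In the spleen and tumor comparisons, leaving out WT replicate 2 in both tissues equals leaving out 1 library.

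No estimate that passed changed sign. Among those that did not pass, for tumor against spleen, voom gave 1.03 for Dgat2, -0.08 for Lpin1 and -0.06 for Nceh1, and no filter gave -0.04 for Lpin1. The Flox-labelled libraries alone gave -0.21 for Lpin1, 0.29 for Cpt1a, 0.31 for Soat1 and -1.18 for Nceh1. For Flox in tumor, voom gave 0.29 for Plin2 and -0.11 for Lpin1, and in spleen 0.07 for Dgat1. Without both WT replicate 2 libraries, the difference for Dgat2 was 0.05. The cause was not tested.

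With 1 library left out, estimates that crossed 0 between tumor and spleen ran from -0.61 to 0.92 for Dgat2, -1.06 to 0.08 for Mgll, -0.30 to 0.39 for Lpin1, -0.46 to 0.04 for Soat1 and -0.08 to 0.47 for Nceh1. For Flox in tumor they ran from -0.47 to 0.06 for Dgat2, -0.53 to 0.99 for Plin2, -0.94 to 0.55 for Lpin1, -0.45 to 3.42 for Ldah, -2.57 to 0.13 for Bscl2, -1.52 to 3.14 for Abhd6, -1.36 to 0.20 for Acsl4 and -0.66 to 2.51 for Srebf1. For Flox in spleen they ran from -0.37 to 0.19 for Dgat1, -2.33 to 2.95 for Dgat2, -0.08 to 1.06 for Plin3, -0.48 to 0.03 for Pnpla2, -0.24 to 0.96 for Lpin1, -0.06 to 0.47 for Hilpda, -1.97 to 0.90 for Slc27a1 and -0.41 to 1.82 for Etfdh. For the difference they ran from -0.54 to 0.01 for Dgat1, -3.18 to 2.09 for Dgat2, -0.17 to 1.40 for Plin2, -0.40 to 0.90 for Plin3, -1.52 to 0.39 for Lpin1, -0.67 to 3.55 for Ldah, -1.99 to 0.76 for Bscl2 and -1.50 to 0.05 for Acsl4.

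Whether replicate numbers pair the samples is not known. The deviations of same-numbered libraries correlated at -0.030 to 0.053, while WT replicate 2 held Ddx3y reads in both tissues. With a replicate block, 2049 genes were called for tumor against spleen and 0 in the Flox comparisons. Under the block, Dgat2 between tumor and spleen was 1.05 and Lpin1 -0.03. For Flox in tumor it gave 0.36 for Plin2, -0.46 for Lpin1, 0.43 for Bscl2 and 0.50 for Rarg, and in spleen 0.34 for Dgat1 and -0.03 for Hilpda. In the simulated tumor comparison of Flox and WT no change up to 16-fold was recovered by edgeR.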
